A study of Mus musculus with 8 samples.

Results

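The genes described here are the cytochrome P450 genes of families 1 to 4 in the livers and liver tumors of Fah-/- mice. They were chosen by gene symbol (Cyp, a family number from 1 to 4, a subfamily letter and a number) and by reaching an FPKM of 1 in 2 or more of the 8 samples. FPKM, fragments per kilobase of a gene relative to all mapped ones, corrects for gene length and for the depth of the sample. Of 22504 rows, 75 carried such a symbol and 51 of these reached the floor, 2 in family 1, 31 in family 2, 6 in family 3 and 12 in family 4, in 17 subfamilies. Just inside the floor stood Cyp2j9, with a mean FPKM of 1.12 over the 8 samples. The highest values among the 24 rows outside it were 2.43 for Cyp2c69 and 1.65 for Cyp2c65, each in a single C 12w sample, and 7 of the 24 rows were listed at 0 in every sample. All 51 genes reached the floor in samples of more than 1 group, and 41 reached it in all 8 samples.

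Cytochromes P450 are heme enzymes. Those of families 1 to 3 sit mainly in the endoplasmic reticulum of hepatocytes, where they oxidise drugs, toxins and steroids with electrons from the reductase Por, while many of family 4 hydroxylate fatty acids and eicosanoids. Their genes are switched by nuclear receptors and sensors, among them the aryl hydrocarbon receptor (Ahr) for Cyp1a, CAR (Nr1i3) and PXR (Nr1i2) for Cyp2b, Cyp2c and Cyp3a, and PPAR alpha (Ppara) for Cyp4a. In mouse liver many are also zoned along the lobule, most toward the central vein, and several differ between the sexes.

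All mice were Fah-/- on the 129S4 background. They lack the enzyme that ends tyrosine breakdown, and stay healthy on NTBC, which blocks an earlier step, at 7.5 mg/L in drinking water. The C 8w group (n = 3, tissue labelled liver) had 8 weeks of moderate chronic liver injury (MCLI) on 2.5% of the NTBC dose, and the C 12w group (n = 2, tissue labelled tumor) had 12 weeks of it. The C 8w + A 4w group (n = 3, labelled liver) had 8 weeks of MCLI and then 4 weeks without NTBC, a severe acute liver injury (SALI). No group had full NTBC and none was wild type, so every change below is a change between injured livers, and no age is given. C 12w differs from C 8w both in weeks and in tissue label. C 8w + A 4w also differs from C 8w in weeks, by the 4 weeks of SALI, and in the severity of injury. The part of the added weeks in changes shared by both groups was not tested.

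The sample codes of C 8w and C 12w belong to one series and those of C 8w + A 4w to another, so code series and group cannot be told apart. Alb was listed at 0 in all 5 samples of the first series and at 12946 or more in the 3 others, so a value of 0 is given here only as listed. Fah transcripts were still measured in every sample, at an FPKM of 13.5 to 16.8 in C 8w and C 12w and 5.02 to 6.36 in C 8w + A 4w. The labels' extraction text speaks of retinas. Of 8 retina markers 7 stayed below an FPKM of 0.2 in every sample and Gnat1 lay between 1.95 and 3.57, while the hepatocyte factor Hnf4a lay between 81.2 and 104. Y-linked Eif2s3y had an FPKM of 26.7 and 26.1 in replicates 97 and 98 of C 8w + A 4w and was listed at 0 in the 6 other samples. No label gives a sex.

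Near-identical copies are common among P450 genes, and fragments that fit more than 1 copy can be credited to the wrong one. Shared sequence, the share of 50-base windows in a gene's transcripts that also occur in another gene, was at most 2% in 11 of the 51 genes and over 20% in 17. The likeness extends upstream of the genes. The 120 bases before the transcription start are shown for genes that the results below turn on, from RefSeq (GRCm38.p6), 5′ to 3′ on the gene's strand. The first 3 are neighbours on chromosome 5, and capitals mark CAAAGTNCA, a form of the element bound by HNF4 (chr5:145469724-145469843, chr5:145805875-145805994 and chr5:145879855-145879974, all on the minus strand).
Cyp3a16: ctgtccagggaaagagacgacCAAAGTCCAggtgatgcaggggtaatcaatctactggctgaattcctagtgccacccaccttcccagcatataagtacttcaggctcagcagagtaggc
Cyp3a44: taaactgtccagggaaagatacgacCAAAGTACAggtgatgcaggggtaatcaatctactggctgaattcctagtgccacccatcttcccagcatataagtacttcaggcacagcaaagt
Cyp3a11: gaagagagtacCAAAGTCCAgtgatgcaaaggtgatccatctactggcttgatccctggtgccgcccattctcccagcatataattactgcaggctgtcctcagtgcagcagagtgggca
Over the 250 bases before the start, Cyp3a16 and Cyp3a44 were identical at 236 of 246 aligned positions (95.9%), and Cyp3a16 and Cyp3a11 at 200 of 258 (77.5%, gaps counted). As the values below show, the first 2 fell together and Cyp3a11 did not pass the test. The marked letters are the same in Cyp3a16 and Cyp3a11 and differ in Cyp3a44. The part of the promoters in these changes was not tested.
The next pair, Cyp1a1 and Cyp1a2, lie on opposite strands of chromosome 9 (chr9:57697493-57697612, plus strand, and chr9:57683656-57683775, minus strand). Capitals mark GCGTG, the core letters of the element that the aryl hydrocarbon receptor binds.
Cyp1a1: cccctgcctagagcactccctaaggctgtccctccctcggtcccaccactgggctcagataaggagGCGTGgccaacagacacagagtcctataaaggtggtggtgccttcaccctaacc
Cyp1a2: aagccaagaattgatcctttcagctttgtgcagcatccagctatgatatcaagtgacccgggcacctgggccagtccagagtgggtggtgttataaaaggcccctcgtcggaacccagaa
The 250 bases before Cyp1a2 held no GCGTG on either strand. The last pair is Cyp2a4 and Cyp2a5 (chr7:26307072-26307191 and chr7:26835219-26835338, plus strand), where capitals mark the bases that differ in the alignment, the first base of Cyp2a4 from a base of Cyp2a5 just upstream of the stretch shown.
Cyp2a4: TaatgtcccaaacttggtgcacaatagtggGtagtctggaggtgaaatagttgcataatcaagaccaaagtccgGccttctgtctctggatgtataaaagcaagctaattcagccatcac
Cyp2a5: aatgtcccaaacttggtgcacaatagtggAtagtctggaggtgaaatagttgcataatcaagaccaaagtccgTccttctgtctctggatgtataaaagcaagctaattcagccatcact
This pair was identical at 245 of 249 aligned positions (98.4%), and the transcripts of the 2 genes shared 38.8% and 37.0% of their windows with another gene.

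Promoters were found for 42 of the 51 genes. On either strand of the 250 bases, CAAAGTNCA stood in 10 of the 42 (Cyp2c37, Cyp2c40, Cyp2c50, Cyp2c67, Cyp2c68, Cyp2c70, Cyp2d26, Cyp3a11, Cyp3a16 and Cyp3a44), against 1.21% of 27025 promoters. CAAAGTCCA, which is contained in it, stood in 6 against 0.381% of all. TATAAA stood in 21 of the 42 against 12.97%, and GCGTG in 8 of the 42 (19.0%) against 28.2%. Related genes carry related promoters, so these are not independent counts, and a match is a run of letters and no more.

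Levels were tested with limma on log2(FPKM + 1) over 11007 genes, with Benjamini-Hochberg adjustment over all of them, and a gene that passed an adjusted p of 0.05 is called changed. Fold changes are on the log2(FPKM + 1) scale, which understates the change of low genes. Each sample was 1 animal, so the tests measure the spread between few animals. Most P450 genes that changed against C 8w fell. In C 8w + A 4w against C 8w, 29 of the 51 genes changed, 6 up and 23 down (56.9% of them, where 39.1% of all genes tested changed, 25.6% up and 13.5% down). The 6 rises include Cyp2a5, whose call rested on values listed at 0, as described below. In C 12w against C 8w, 28 changed, 7 up and 21 down (54.9%, against 20% of all genes, 13.1% up and 6.9% down). Set against C 12w, C 8w + A 4w differed in 27 of the genes, with 13 higher and 14 lower there (52.9%, where 34.2% of all genes differed, 18.1% higher and 16.1% lower). The median log2 fold change of the 51 genes was -0.43, -0.45 and 0.23 in these 3 comparisons, and that of all genes was 0.13, 0.12 and 0.01. Median-ratio scaling brings the first and second of these medians over all genes to 0.01, so a log2 fold change against C 8w is best read relative to a shift of about 0.12. In these bulk samples, fewer hepatocytes and less RNA per hepatocyte cannot be told apart.

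Both comparisons with C 8w use the same 3 C 8w samples. The count for C 12w against C 8w fell to 17, 16 and 14 genes without C 8w replicates 1, 2 and 3, and the count for C 8w + A 4w against C 8w was 19 (3 up, 16 down) without the samples that carried Y-linked transcripts, which leaves replicate 96 as the only sample of its group. The share of all genes called in these refits is not given here. A loss particular to P450 genes therefore cannot be told from a general loss of power. Of the 11 genes that share at most 2% of their windows, 6 fell and none rose in C 8w + A 4w. For C 12w, 4 rose (Cyp2c23, Cyp2j5, Cyp2j9 and Cyp2r1) and 1 fell (Cyp4a14). This makes 54.5% and 45.5% of the 11 changed, where 39.1% and 20% of all genes did. The matching directions over all genes were 25.6% up and 13.5% down, then 13.1% up and 6.9% down. The difference in balance from the other 40 genes, of which 3 rose and 20 fell in C 12w, was not tested, and the rises of Cyp2j5 and Cyp2r1 in C 12w were lost with some samples left out.

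**Figure D1:**
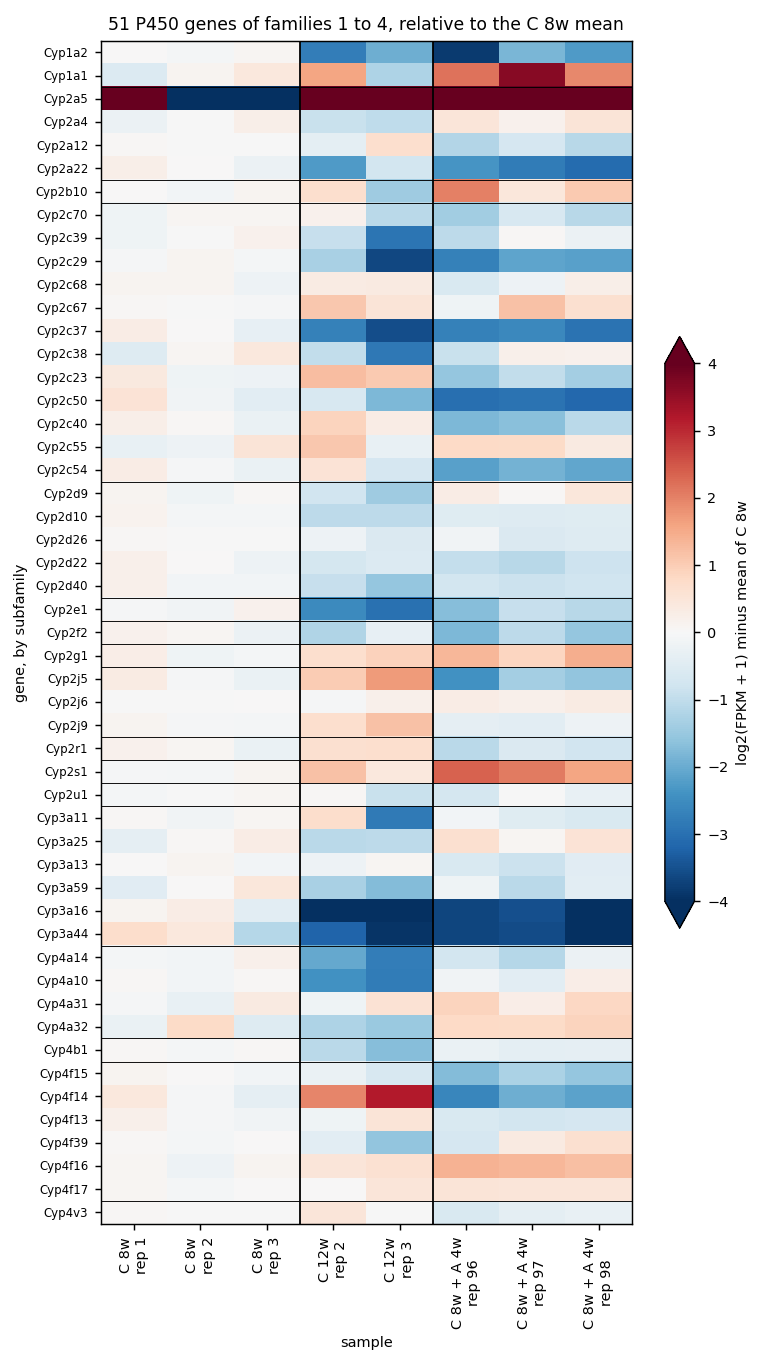
Each row is 1 of the 51 P450 genes, ordered by subfamily, and each column 1 sample. Color is log2(FPKM + 1) minus the mean of C 8w, cut at -4 and 4. Blue rows dominate both other groups, Cyp3a16 and Cyp3a44 most, while Cyp1a1, Cyp2s1 and Cyp4f16 are red in all 3 C 8w + A 4w samples. The row of Cyp2a5 is set by its 2 values listed at 0 in C 8w.

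The Cyp1a genes moved in opposite directions in C 8w + A 4w against C 8w. Cyp1a2, a pericentral enzyme of aromatic amine and caffeine oxidation, had an FPKM of 558, 522 and 590.4 in C 8w, against 80.7 and 143 in C 12w, and 38.0, 156 and 114 in C 8w + A 4w. Every C 8w sample lay above every other sample. Its log2 fold change was -2.65 (SE 0.47, adjusted p = 0.00292) in C 8w + A 4w and -2.36 (SE 0.52, adjusted p = 0.0177) in C 12w, the latter lost without C 8w replicate 1 (adjusted p = 0.0598) or 3 (adjusted p = 0.0595).

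Cyp1a1, the gene most used as a readout of the aryl hydrocarbon receptor, had an FPKM of 4.16, 7.02 and 9.13 in C 8w, 21.6 and 2.19 in the tumors of C 12w, and 32.8, 92.4 and 27.5 in C 8w + A 4w. All 3 C 8w + A 4w samples exceeded the others, and the C 12w samples fell on either side of C 8w. The rise against C 8w was 2.58 on the log2 scale (SE 0.71, adjusted p = 0.0208). It did not pass without C 8w replicate 1 (adjusted p = 0.0809), C 8w replicate 2 (0.0542) or C 8w + A 4w replicate 97 (0.0645). Replicate 97 held the highest Cyp1a1 and also the highest sum of 9 macrophage markers, 464 against 139 to 206 elsewhere. Replicates 96 and 98 had the lowest sums of all samples, 148 and 139, with Cyp1a1 still above every C 8w sample. The part of macrophages in the Cyp1a1 values was not tested. Ahr itself was at 9.27 to 11.4 in C 8w, 8.69 and 6.80 in the C 12w tumors, and 7.31 to 15.1 in C 8w + A 4w, and passed in no comparison.

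Cyp2a5 and Cyp2a4 were the most abundant P450 transcripts. Cyp2a5, which oxidises coumarin and nicotine, had an FPKM of 7546 in C 8w replicate 1 and was listed at 0 in C 8w replicates 2 and 3. Elsewhere it was at 2934 and 6090 in C 12w and 9010 (replicate 96), 7325 and 10196 in C 8w + A 4w. Its near copy Cyp2a4, a steroid 15 alpha-hydroxylase, was listed at 2242, 2627 and 3137 in the same C 8w samples, so replicates 2 and 3 stood out for Cyp2a5 alone. The formal rise of Cyp2a5 in C 8w + A 4w (8.80, SE 2.98, adjusted p = 0.0457) rested on these zeros, and with zeros of abundant genes set to missing it was 0.22 (adjusted p = 0.751). It was also lost without C 8w replicate 2 (6.66, adjusted p = 0.145) or 3 (6.66, adjusted p = 0.146) or without any 1 of the C 8w + A 4w samples (adjusted p of 0.0917 to 0.105).

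In C 12w, Cyp2a4 was at 1417 and 1306, below every other sample, and its log2 fold change was -0.96 against C 8w (SE 0.23, adjusted p = 0.0242), lost without any 1 of the C 8w samples (adjusted p of 0.0521 to 0.085). Cyp2a12 was lower in C 8w + A 4w, at 203, 283 and 211, than in C 8w, at 467, 456 and 447 (-0.99, SE 0.26, adjusted p = 0.0183), a fall that was lost without C 8w replicate 1 or 2 or C 8w + A 4w replicate 96 or 98 (adjusted p of 0.0549 to 0.064). Cyp2a22 fell furthest of the subfamily, from 33.3, 29.0 and 23.8 in C 8w to 4.75, 3.27 and 2.51 in C 8w + A 4w (-2.74, SE 0.36, adjusted p = 0.000639). The latter 2 genes share 20.1% and 20.2% of their windows.

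Cyp2b10, the classical target of CAR, was low in all samples. Its FPKM was 4.17, 3.76 and 4.54 in C 8w, against 7.24 and 0.939 in C 12w, and 19.7, 6.02 and 9.69 in C 8w + A 4w. The 3 C 8w + A 4w samples exceeded C 8w without passing the test (1.17, SE 0.53, adjusted p = 0.112). Other Cyp2b rows were below the floor.

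Of 12 Cyp2c genes, which epoxidise arachidonic acid and oxidise many drugs, 7 fell and none rose in C 8w + A 4w against C 8w, with a median log2 fold change of -1.17. In C 12w, 5 fell and 1 rose. Of all genes 13.5% fell in the former and 6.9% in the latter. Cyp2c29 had an FPKM of 202, 225 and 196 in C 8w, 83.3 and 15.6 in the tumors of C 12w, and 30.8, 47.8 and 45.3 in C 8w + A 4w. Its log2 fold change in C 8w + A 4w was -2.33 (SE 0.50, adjusted p = 0.00724). The fall in C 12w (-2.48, SE 0.56, adjusted p = 0.0189) was lost without any 1 of the C 8w samples (adjusted p of 0.0575 to 0.0615). Its size depended on the tumor, at -1.31 without C 12w replicate 3 and -3.65 without C 12w replicate 2.

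Cyp2c37 fell in both groups, from 59.5, 48.8 and 37.4 in C 8w to 6.46 and 3.18 in C 12w and 6.41, 7.22 and 5.25 in C 8w + A 4w. The log2 fold change was -2.75 (SE 0.24, adjusted p = 6.89e-05) in C 8w + A 4w and -3.13 (SE 0.27, adjusted p = 0.000597) in C 12w. Its neighbour in sequence, Cyp2c50, fell in C 8w + A 4w from 25.3, 15.4 and 12.5 to 1.21, 1.32 and 1.03 (-3.05, SE 0.32, adjusted p = 0.000194), and lay between these groups in C 12w, at 10.6 and 4.17 (-1.22 against C 8w, SE 0.36, adjusted p = 0.0458). The call in C 12w was lost without any 1 of the samples other than C 12w replicate 2 (adjusted p of 0.0604 to 0.217). Cyp2c37 shares 21.1% of its windows with Cyp2c50 and 30.1% with any gene, and Cyp2c50 shares 12.6% with Cyp2c37 and 18.3% with any gene.

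Cyp2c54 and Cyp2c40 were lower in C 8w + A 4w than in either other group. Cyp2c54 was at 5.85, 4.36 and 3.65 in C 8w, 7.08 and 2.46 in the C 12w tumors, and 0.232, 0.492 and 0.319 in C 8w + A 4w. The last differed from C 12w by -1.98 on the log2 scale (SE 0.32, adjusted p = 0.00236). Cyp2c40 was at 11.2, 9.74 and 7.82, at 18.6 and 12.0, and at 2.01, 2.32 and 4.02 in the same order of groups (-2.11 against C 12w, SE 0.26, adjusted p = 0.000558). With 60.3% shared windows, Cyp2c40 cannot be separated well from its copies. Cyp2c38 was at 16.1, 24.5 and 31.8 in C 8w, 11.4 and 2.31 in the C 12w tumors, and 12.1, 26.7 and 26.4 in C 8w + A 4w. Its fall in C 12w (-1.92, SE 0.56, adjusted p = 0.0436) was lost without C 8w replicate 1, 2 or 3 or C 8w + A 4w replicate 97 or 98 (adjusted p of 0.0563 to 0.126). Without C 12w replicate 3, which leaves 1 tumor, the log2 fold change was only -0.97.

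Cyp2c23 and Cyp2c70 have no shared windows. Cyp2c23, an arachidonic acid epoxygenase, had an FPKM of 15.3, 9.92 and 9.68 in C 8w, against 28.0 and 24.4 in C 12w, and 3.27, 5.33 and 3.83 in C 8w + A 4w. The 3 groups did not overlap, and the log2 difference was 1.13 (SE 0.23, adjusted p = 0.0126) for C 12w and -1.29 (SE 0.20, adjusted p = 0.00167) for C 8w + A 4w. Cyp2c70, which makes the muricholic bile acids of mice, was at 239.5, 283 and 284 in C 8w, 303 and 126 in the tumors of C 12w, and 102, 171 and 125 in C 8w + A 4w. Its fall in C 8w + A 4w (-1.04, SE 0.31, adjusted p = 0.0299) was lost without C 8w replicate 1, 2 or 3 or C 8w + A 4w replicate 96 or 98 (adjusted p of 0.0671 to 0.0997).

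Against C 8w, 4 of 5 Cyp2d genes fell in C 12w, 3 of 5 fell in C 8w + A 4w and none rose in either, where 6.9% and 13.5% of all genes fell. Cyp2d10 was at 445, 376 and 382 in C 8w, 195 and 194 in the C 12w tumors, and 287, 282 and 287 in C 8w + A 4w. The log2 fold changes were -1.04 (SE 0.14, adjusted p = 0.00275) in C 12w and -0.49 (SE 0.13, adjusted p = 0.0165) in C 8w + A 4w, the latter lost without C 8w replicate 1 (adjusted p = 0.0776) or C 8w + A 4w replicate 98 (adjusted p = 0.0502). Cyp2d9, a testosterone 16 alpha-hydroxylase known as male-biased, was at 345, 288 and 334 in C 8w, against 190.3 and 120.5 in C 12w, and 393, 333 and 444 in C 8w + A 4w. C 8w + A 4w exceeded C 12w (log2 difference 1.35, SE 0.22, adjusted p = 0.0025), and replicate 96, without Y-linked transcripts, did not stand apart from 97 and 98. The fall of Cyp2d9 in C 12w was lost without C 8w replicate 1 (adjusted p = 0.0578) or 3 (adjusted p = 0.0529).

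Cyp2e1, the pericentral enzyme that oxidises ethanol and acetaminophen, gave a graded order of the 3 groups. Its FPKM was 1672, 1559 and 1916 in C 8w and 521, 900.1 and 795 in the C 8w + A 4w livers, and only 289 and 217 in C 12w. No 2 groups overlapped. Against C 8w the log2 fold change was -2.77 in C 12w (SE 0.26, adjusted p = 0.000723) and -1.25 in C 8w + A 4w (SE 0.23, adjusted p = 0.00402), and C 8w + A 4w exceeded C 12w by 1.52 (SE 0.26, adjusted p = 0.00301).

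Cyp2f2, which bioactivates naphthalene and is known as periportal, was at 699, 649 and 527 in C 8w, 267 and 493 in the tumors of C 12w, and 179, 300.4 and 214 in C 8w + A 4w. It fell in C 8w + A 4w (-1.46, SE 0.27, adjusted p = 0.00397) and did not pass in C 12w (-0.77, adjusted p = 0.104). Of 8 members listed as pericentral, 5 fell there and 1 rose (Cyp2a5, on the zeros described above), and in C 12w 6 fell and none rose (75% changed in each, where 39.1% and 20% of all genes did).

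Among the smaller Cyp2 subfamilies, some genes rose in C 12w and fell in C 8w + A 4w. Cyp2j5, an epoxygenase of liver and kidney with 0.174% shared windows, was at 67.7, 51.9 and 44.5 in C 8w, 109 and 179 in the C 12w tumors, and 9.24, 20.6 and 17.6 in C 8w + A 4w. The groups did not overlap, and C 8w + A 4w was lower than C 12w by a log2 difference of -3.14 (SE 0.34, adjusted p = 0.000293) and than C 8w by -1.78 (SE 0.31, adjusted p = 0.00264). The rise in C 12w (1.36, SE 0.34, adjusted p = 0.0284) was lost without C 8w replicate 1, 2 or 3 or C 12w replicate 3 (adjusted p of 0.0532 to 0.126).

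Cyp2r1, a vitamin D 25-hydroxylase without shared windows, kept the same order of groups at lower levels, 5.73, 5.41 and 4.05 in C 8w, against 8.36 and 8.69 in C 12w, and 1.84, 3.03 and 2.53 in C 8w + A 4w (-1.47 between the last 2, SE 0.18, adjusted p = 0.000521). Its rise in C 12w against C 8w (0.66, SE 0.18, adjusted p = 0.0353) was lost under median-ratio scaling (0.54, adjusted p = 0.0678), upper-quartile scaling (adjusted p = 0.0528) and quantile normalisation (adjusted p = 0.0709), and without C 8w replicate 1, 2 or 3, C 12w replicate 3 or C 8w + A 4w replicate 98 (adjusted p of 0.0601 to 0.107). Cyp2j9 was also higher in C 12w, at 1.92 and 3.12, than in C 8w, at 1.00, 0.799 and 0.7498 (0.91, SE 0.17, adjusted p = 0.00901). Cyp2j6 hardly moved, between 26.7 and 34.7 in all 8 samples, and passed in no comparison.

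Cyp2s1 and Cyp2g1, P450s known mainly from tissues other than liver, rose from very low levels. Cyp2s1 was at 0.0966, 0.0678 and 0.226 in C 8w, 1.53 and 0.504 in the tumors of C 12w, and 4.80, 3.73 and 2.37 in C 8w + A 4w (2.003 against C 8w, SE 0.24, adjusted p = 0.000411). Cyp2g1 was at 0.969, 0.457 and 0.553, at 1.61 and 2.10, and at 3.17, 1.98 and 3.49 in the same order (1.21 in C 8w + A 4w, SE 0.19, adjusted p = 0.00151). The rise of Cyp2g1 in C 12w (0.79, SE 0.21, adjusted p = 0.0332) was lost under each of 3 other scalings (adjusted p of 0.0503 to 0.098) and without C 8w replicate 2 or 3 or C 12w replicate 3 (adjusted p of 0.0982 to 0.118). Of 6 bile duct and progenitor markers tested, 3 rose in C 12w, 2 rose in C 8w + A 4w and none fell (50% and 33.3% changed, where 20% and 39.1% of all genes did). The sum of all 8 listed was 14.1 to 20.5 in C 8w, 35.8 and 360.4 in the C 12w tumors, and 48.6 to 72.0 in C 8w + A 4w. The defining markers were low, Krt19 at 0.354 to 1.43 in C 8w, 0.798 and 1.06 in the tumors, and 1.25 to 2.22 in C 8w + A 4w (0.66 against C 8w, adjusted p = 0.059), and Krt7 at 1.17 or below in every sample. The markers that rose in C 8w + A 4w were Cd24a, at 41.3, 14.97 and 12.4 there against 0.6355, 0.989 and 1.74 in C 8w (3.33, SE 0.41, adjusted p = 0.000456), and Epcam (1.83, SE 0.37, adjusted p = 0.00588). Those that rose in C 12w were Spp1 (3.03), Sox9 (2.44) and Epcam (1.42). Their part in the rise of Cyp2s1 and Cyp2g1 was not tested. Cyp2u1 lay between 1.27 and 3.50 and passed in no comparison.

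Cyp3a gave the largest falls. Cyp3a16, a form of young and female mice, had an FPKM of 47.5, 53.3 and 32.5 in C 8w, against 0.561 and 0.597 in C 12w, and 2.53, 2.86 and 0.614 in C 8w + A 4w. The log2 fold change was -4.82 in C 12w (SE 0.36, adjusted p = 0.000318) and -3.99 in C 8w + A 4w (SE 0.32, adjusted p = 4.21e-05). Cyp3a44, known as female-biased, was at 32.9, 27.0 and 8.46 in C 8w, 1.26 and 0.367 in the tumors of C 12w, and 0.644, 0.741 and 0.217 in C 8w + A 4w (-3.56, SE 0.50, adjusted p = 0.00313, and -3.78, SE 0.44, adjusted p = 0.000363). Both genes were low in C 12w and in replicate 96, which carried no Y-linked transcripts, as well as in replicates 97 and 98, which did. Cyp3a16 shares 10.7% of its windows, the largest part with Cyp3a11. Cyp3a44 shares 26.5%, the largest part with Cyp3a41a, so fragments of these genes may be credited to the wrong copy.

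Cyp3a11, the main Cyp3a of adult mouse liver and a PXR target, did not follow them. Its FPKM was 921, 804 and 927 in C 8w and 822, 636 and 581 in the C 8w + A 4w livers, while C 12w had 1450 (replicate 2) and 123, so that the 2 tumors lay on both sides of all other samples. It passed in no comparison (-1.06 in C 12w, SE 0.81, adjusted p = 0.372, and -0.39 in C 8w + A 4w, SE 0.73, adjusted p = 0.696), and without C 12w replicate 3 the difference in C 12w was 0.72. Cyp3a25 was lower in C 12w, at 179.96 and 184, than in C 8w, at 302, 397 and 474 (-1.07, SE 0.24, adjusted p = 0.0179, lost without C 8w replicate 2 or 3 at adjusted p = 0.0599 and 0.0614), and was at 603, 408 and 565 in C 8w + A 4w. Cyp3a13, without shared windows, was lower in C 8w + A 4w, at 45.8, 38.0 and 50.9, than in C 8w, at 70.2, 75.6 and 63.9 (-0.63, SE 0.14, adjusted p = 0.00961).

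**Figure D2:**
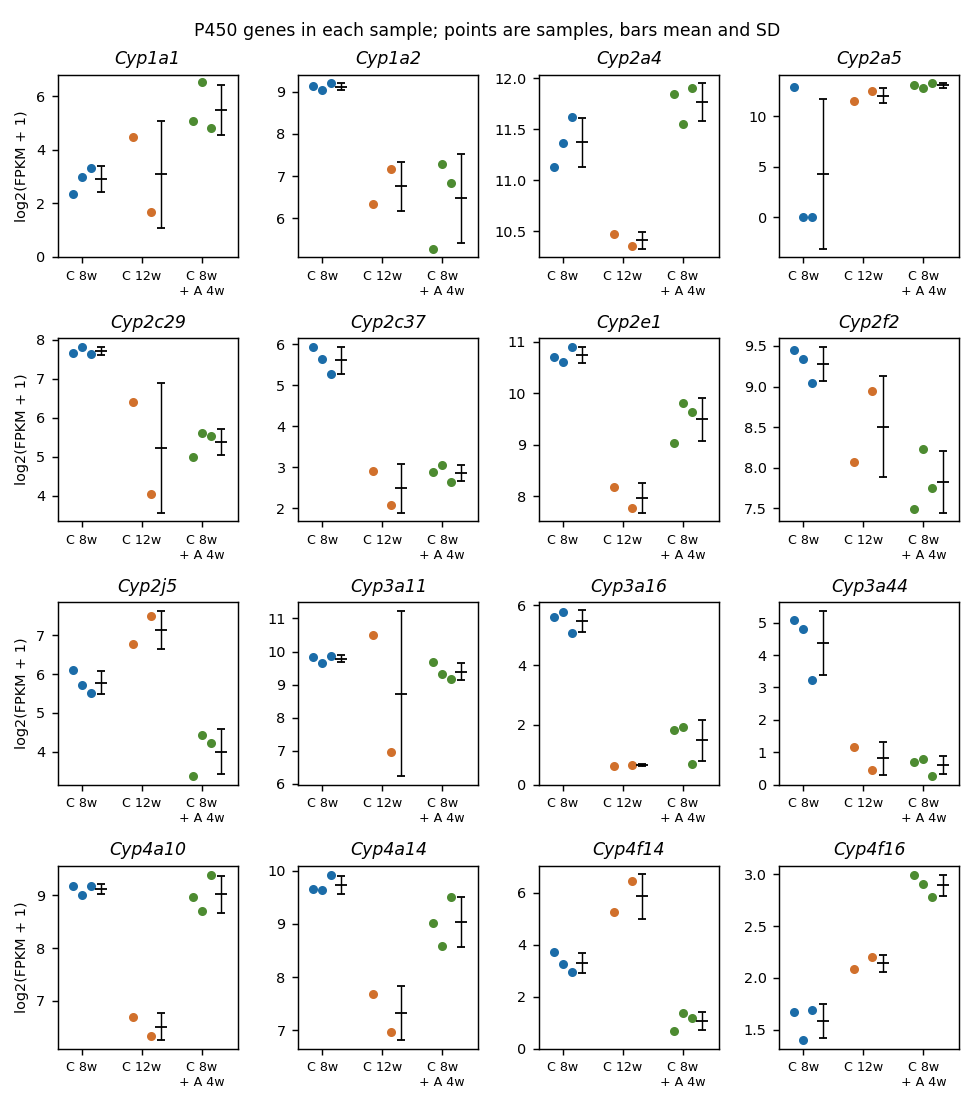
Each panel is 1 P450 gene, with log2(FPKM + 1) on the vertical axis (the axes differ and, except where low values reach it, do not start at 0). Points are samples and bars are the mean and SD of the group. Cyp3a16 and Cyp3a44 are low in both C 12w and C 8w + A 4w, Cyp4a10 and Cyp4a14 are low in C 12w, Cyp2j5 and Cyp4f14 are high in C 12w and low in C 8w + A 4w, and Cyp3a11 parts the 2 C 12w samples.

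Cyp4a genes, the fatty acid omega-hydroxylases under PPAR alpha, fell in C 12w and were not called in C 8w + A 4w. Their summed FPKM was 1406, 1340 and 1584 in C 8w, 324 and 229.9 in the C 12w tumors, and 1066, 838 and 1454 in C 8w + A 4w. Of the 4 genes, 3 fell in C 12w, where 6.9% of all genes fell, with a median log2 fold change of -1.89. In C 8w + A 4w none of the 4 passed against C 8w, and 3 of 4 were higher than in C 12w, where 18.1% of all genes were higher.

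Cyp4a10 was at 578, 515 and 582 in C 8w, against 102 and 79.1 in C 12w, and 501, 414 and 673 in C 8w + A 4w. It fell in C 12w by 2.62 on the log2 scale (SE 0.22, adjusted p = 0.000562) and C 8w + A 4w exceeded C 12w by 2.52 (SE 0.22, adjusted p = 8.36e-05). Cyp4a14, with 0.235% shared windows, was at 803, 792 and 974 in C 8w, 204 and 123 in the tumors of C 12w, and 514, 384 and 729.6 in C 8w + A 4w. Its log2 fold change was -2.42 in C 12w (SE 0.30, adjusted p = 0.00206) and -0.70 in C 8w + A 4w (SE 0.27, adjusted p = 0.0721), where all 3 samples nonetheless lay below C 8w.

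Cyp4a32, of which 43.8% is shared, was at 9.50, 20.2 and 7.85 in C 8w, 4.36 and 3.50 in the C 12w tumors, and 20.9, 20.3 and 22.1 in C 8w + A 4w. C 8w + A 4w exceeded C 12w (2.17, SE 0.32, adjusted p = 0.00141), while its difference from C 8w, where replicate 2 was as high, did not pass (0.82, SE 0.29, adjusted p = 0.0513). The fall in C 12w against C 8w (-1.35, SE 0.32, adjusted p = 0.0227) was lost without C 12w replicate 3 (adjusted p = 0.0818). Cyp4a12a and Cyp4a12b, male-biased relatives whose symbols the rule does not take, are no members. Cyp4a12b was at 8.98, 7.001 and 19.0 in C 8w, 27.6 and 19.2 in the C 12w tumors, and 73.3, 77.9 and 81.2 in C 8w + A 4w, with replicate 96 close to replicates 97 and 98. Ppara was at 10.9 to 16.6 in C 8w, against 9.29 and 14.2 in C 12w, and 6.74 to 12.6 in C 8w + A 4w, and passed in no comparison.

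Cyp4f held the widest difference of C 8w + A 4w from C 12w. Cyp4f14, which inactivates leukotriene B4, was at 12.1, 8.54 and 6.73 in C 8w, 37.1 and 87.8 in the tumors of C 12w, and 0.624, 1.58 and 1.24 in C 8w + A 4w. The 3 groups did not overlap. The log2 difference was 2.56 for C 12w against C 8w (SE 0.37, adjusted p = 0.0036), -2.23 for C 8w + A 4w against C 8w (SE 0.33, adjusted p = 0.00121) and -4.78 between the last 2 (SE 0.37, adjusted p = 3.43e-05).

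Cyp4f15 fell in C 8w + A 4w from 44.9, 42.0 and 38.5 to 11.7, 16.9 and 13.5 (-1.52, SE 0.16, adjusted p = 0.00018). Cyp4f16 rose there from 2.18, 1.63 and 2.24 to 6.95, 6.49 and 5.89 (1.31, SE 0.12, adjusted p = 8.44e-05), with 3.23 and 3.59 in C 12w. Cyp4f17, which shares 2.99% of its windows, was at 2.51, 2.12 and 2.31 in C 8w, 2.38 and 3.67 in the C 12w tumors, and 3.77, 3.60 and 3.62 in C 8w + A 4w, where it rose by 0.49 (SE 0.13, adjusted p = 0.0193). That call was lost under upper-quartile scaling (adjusted p = 0.0554) and quantile normalisation (adjusted p = 0.0549), and without C 8w replicate 2 or 3 or C 8w + A 4w replicate 96 or 98 (adjusted p of 0.0513 to 0.0722). In all, 2 Cyp4f genes rose and 3 of 6 fell in C 8w + A 4w, where 25.6% of all genes rose and 13.5% fell. Cyp4b1 was lower in C 12w, at 2.81 and 1.45, than in C 8w, at 7.23, 6.63 and 7.24 (-1.40, SE 0.18, adjusted p = 0.00212). Cyp4v3, a fatty acid hydroxylase, was at 29.3 to 30.6 in C 8w, 42.2 and 29.2 in the C 12w tumors, and 19.3 to 24.1 in C 8w + A 4w, and did not pass against C 8w (adjusted p = 0.344 for C 12w and 0.0524 for C 8w + A 4w).

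**Figure D3:**
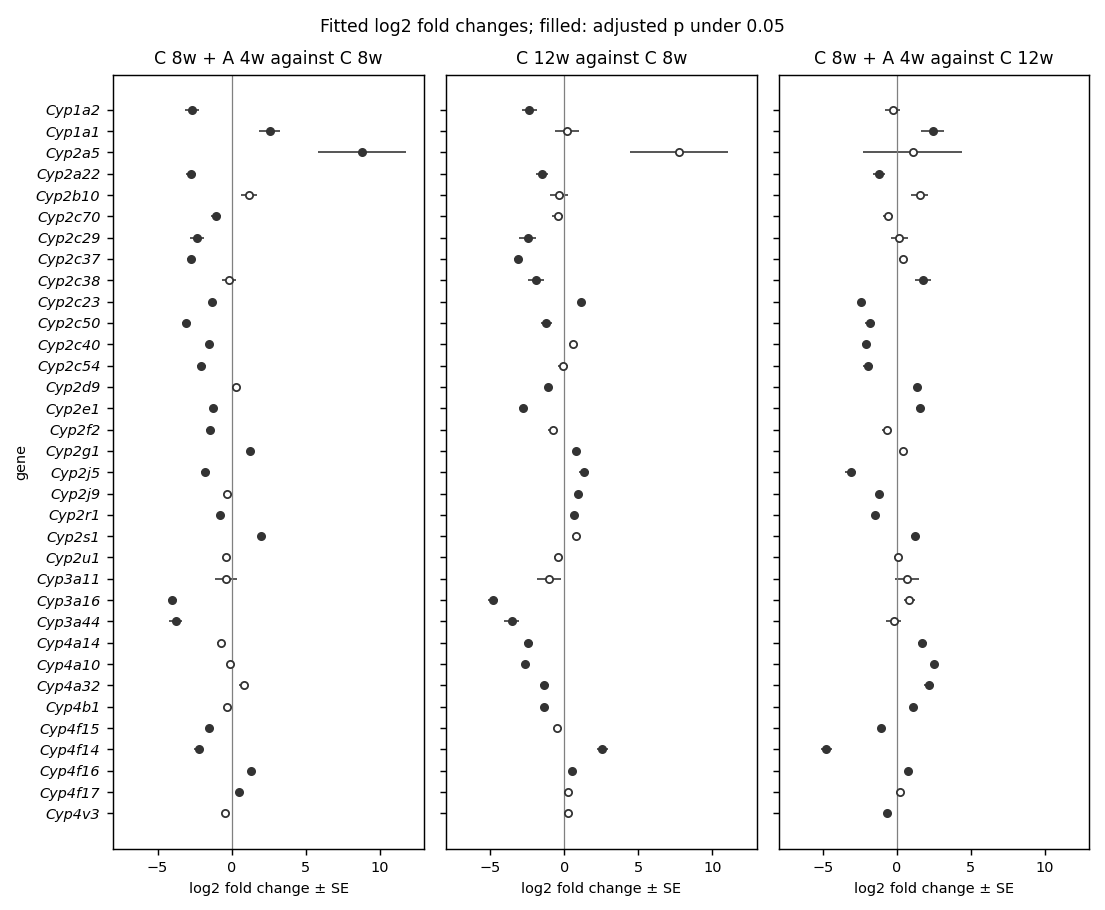
Fitted log2 fold changes with their SE for the P450 genes named by rule, in the 3 comparisons; filled points passed an adjusted p of 0.05 and open points did not. Cyp3a16 and Cyp3a44 lie furthest left against C 8w, Cyp4f14 at 2.56 in C 12w and -4.78 for C 8w + A 4w against C 12w, and Cyp2a5 has the longest error bars.

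The 2 C 12w tumors differed from each other in a number of P450 genes. A log2 difference of at least 1 between them was found in 15 of the 51 genes (29.4%), against 6.95% of all genes tested. Over the 3 samples of a group, a range of at least 1 was found in 3 of the 51 genes in C 8w (0.963% of all genes) and in 9 of them in C 8w + A 4w (4.2% of all genes). Of the 15, 11 were higher in replicate 2 and 4 in replicate 3. Cyp3a11 was 11.7-fold higher in replicate 2, Cyp1a1 9.87-fold, Cyp2b10 7.71-fold and Cyp2c29 5.36-fold, while Cyp2a22 was 3.21-fold and Cyp2a12 2.07-fold higher in replicate 3. The tumors differed in other cell markers too. Replicate 3 had Spp1 at 311 and Sox9 at 19.9, against 22.2 and 3.61 in replicate 2, and their part in the P450 differences was not tested. Which tumor gave each sample, and how much tissue around it was taken, is not given.

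**Figure D4:**
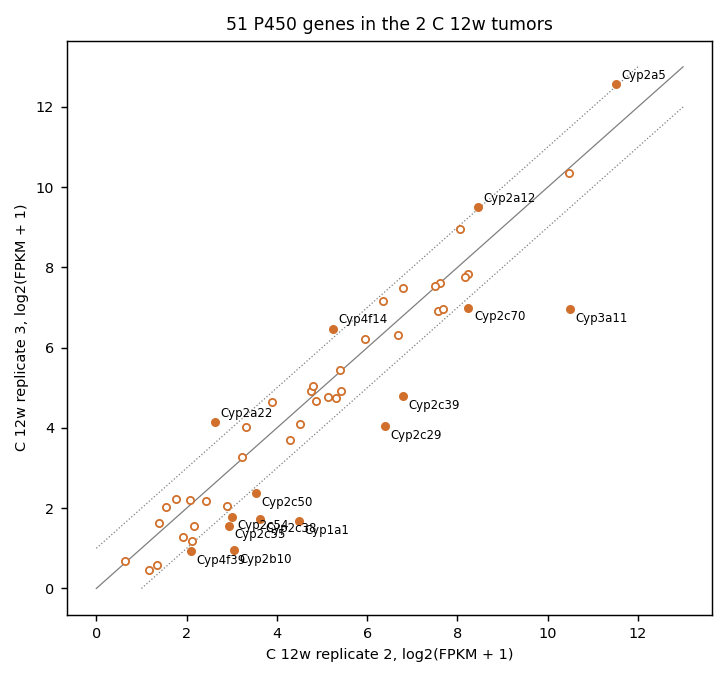
Each point is 1 of the 51 P450 genes, with log2(FPKM + 1) in C 12w replicate 2 on the horizontal axis and in replicate 3 on the vertical axis. The solid line marks equal values and the dotted lines a log2 difference of 1. Of the 15 filled points outside the dotted lines, 11 are below them, among them Cyp3a11, Cyp2c29 and Cyp2c39.

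Grouped by the receptors known to drive them, the members gave the following counts. Of 11 genes listed under CAR or PXR, 5 fell and none rose in C 8w + A 4w (45.5% changed, where 39.1% of all genes did, and the median log2 fold change was -0.42), and 6 fell and none rose in C 12w (54.5%, where 20% of all genes changed, with a median of -1.07). The shares of all genes given here are the background for the list counts that follow. CAR itself, Nr1i3, was at 33.0, 25.1 and 27.1 in C 8w, against 7.50 and 5.69 in C 12w, and 10.3, 11.1 and 10.9 in C 8w + A 4w. It fell in both (-1.95, SE 0.15, adjusted p = 0.000367 in C 12w and -1.31, SE 0.14, adjusted p = 0.000185 in C 8w + A 4w), with no overlap between groups. Of the windows of Nr1i3, 63.6% are shared with Tomm40l, so the fragments of these genes may not be well separated. PXR, Nr1i2, was between 20.5 and 28.6 in all samples and passed in no comparison.

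In the list of receptors and liver factors, 23 were tested. In C 8w + A 4w against C 8w 10 fell and none rose (43.5% changed), led by Cux2 (-1.52) and Nr1i3. In C 12w 4 fell, again with Nr1i3 and Cux2 (-1.44) in front, and 2 rose, Bcl6 (1.44) and Foxa3 (1.20), so that 26.1% changed. In C 8w + A 4w against C 12w 2 were higher and 8 lower (43.5%, where 34.2% of all genes differed), with log2 differences of 1.44 for Cebpb and 0.64 for Nr1i3 against -2.10 for Bcl6 and -1.76 for Onecut1.

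Por, the reductase of all microsomal P450s, was at 176, 182 and 206 in C 8w, 95.8 and 49.2 in the tumors of C 12w, and 189, 170.4 and 170.3 in C 8w + A 4w. It fell in C 12w (-1.44, SE 0.25, adjusted p = 0.00733) and not in C 8w + A 4w (-0.09, adjusted p = 0.77), and was the only 1 of 4 electron donors called in C 12w (25%). Cytochrome b5, Cyb5a, was the only 1 called in C 8w + A 4w against C 8w (-0.60, SE 0.14, adjusted p = 0.0123).

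Alas1, the first enzyme of heme synthesis, was also lowest in C 12w, at 171, 184 and 192 in C 8w, 82.2 and 65.6 in the C 12w tumors, and 213, 216 and 189 in C 8w + A 4w (log2 fold change in C 12w -1.30, SE 0.15, adjusted p = 0.00139). Hmox1, which breaks heme down, was at 51.8, 60.7 and 47.3 in C 8w, against 100.1 and 133 in C 12w, and 167, 234 and 245 in C 8w + A 4w. It rose in both (1.11, SE 0.21, adjusted p = 0.0104 and 1.98, SE 0.19, adjusted p = 0.000111). Of 9 heme genes, 4 fell in C 8w + A 4w, led by Alad (-1.08) and Ppox (-1.003), and Hmox1 alone rose (55.6% changed), while in C 12w only Alas1 and Hmox1 changed (22.2%).

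**Figure D5:**
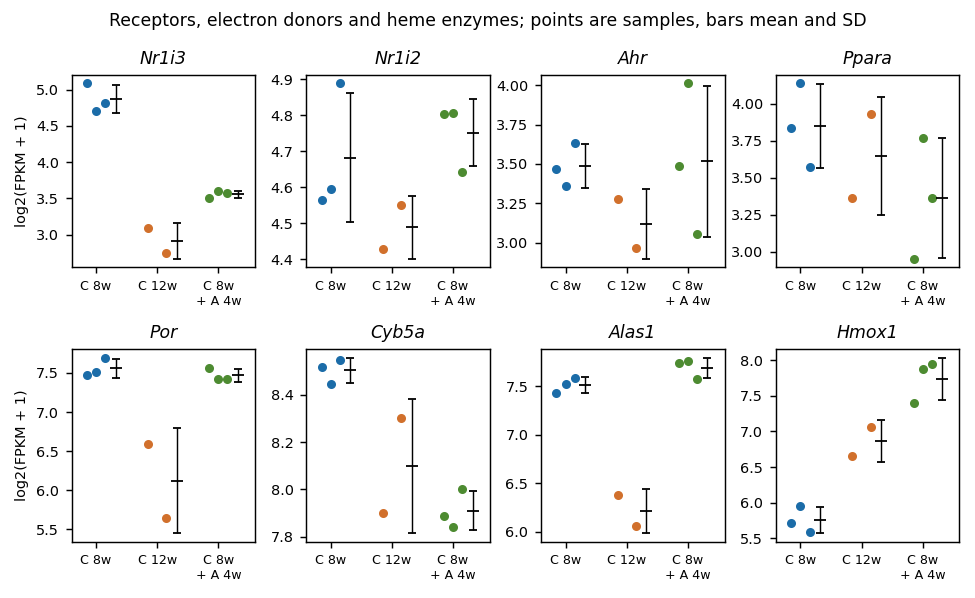
Receptors (Nr1i3, Nr1i2, Ahr, Ppara), electron donors (Por, Cyb5a) and heme enzymes (Alas1, Hmox1) in each sample, as log2(FPKM + 1) on axes that differ between panels and do not start at 0. Points are samples and bars the mean and SD of the group. Nr1i3 is low in both later groups, Por and Alas1 are low in C 12w, and Hmox1 rises from C 8w over C 12w to C 8w + A 4w.

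Among members known as female-biased, 3 of 8 fell and 1 rose in C 8w + A 4w (50% changed), and 5 fell and 1 rose in C 12w (75%). Of 3 members known as male-biased, 1 fell in C 8w + A 4w and 2 fell in C 12w (33.3% and 66.7%). None of them rose. Outside the P450 families tested here, 9 female-biased liver genes reached the floor. In C 8w + A 4w 7 of them fell, among them Cyp17a1 (-5.71), and in C 12w 6 fell, among them Sult2a1 (-5.07), with none up in either (77.8% and 66.7% changed). Sult2a1 was at 679, 605 and 631 in C 8w, 29.1 and 10.97 in the tumors of C 12w, and 109, 116 and 115 in C 8w + A 4w. There, replicate 96 lay close to replicates 97 and 98. Of 9 male-biased genes tested, 2 rose and 4 fell in C 8w + A 4w (Ugt2b38 and Serpina1e at 4.03 and 3.19, against Ugt2b1 and Selenbp2 at -3.08 and -1.22), and 2 rose in C 12w, Mup20 (3.88) and Mup3 (3.54), which makes 66.7% and 22.2% changed. The summed FPKM of the 14 male-biased genes listed outside these families did set replicate 96 apart. It was 44.0 there, against 113 and 92.2 in replicates 97 and 98. The sex of the mice was not given, and its part in these values was not tested. Replicate 96 carried no Y-linked transcripts, like every C 8w and C 12w sample, and with replicates 97 and 98 left out 19 of the 51 P450 genes were called in C 8w + A 4w against C 8w. That count sets 1 sample against 3 and assumes that the lone sample varies like those of the other groups.

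Other enzymes of drug metabolism were counted in the same way. Of 28 other phase 1 enzymes, 10 fell and 1 rose in C 8w + A 4w (Ces1c among the falls, at -2.75, and Ces2c the rise, at 1.78), and 9 fell and 1 rose in C 12w (Fmo2 among the falls, at -1.46, and Aox3 the rise, at 0.77). Of 17 tested genes of the UDP-glucuronosyltransferase list, which holds Ugdh, 7 fell and 2 rose in C 8w + A 4w (Ugt2b1 and Ugt3a2, at -3.08 and -2.36, against Ugt2b38 and Ugt1a7c, at 4.03 and 0.74), and 3 fell and none rose in C 12w, among them Ugt1a1 (-1.94) and Ugt3a1 (-1.49). Of the phase 1 list 39.3% and 35.7% changed, with median log2 fold changes of -0.50 and -0.61, and of the glucuronosyltransferases 52.9% and 17.6%, with medians of -0.43 and -0.11.

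Markers of hepatocytes and other cells were read beside these values. Of 11 hepatocyte markers, 2 rose (Alb among them, on the zeros described above) and 1 fell in C 8w + A 4w, and 1 rose and 1 fell in C 12w. Of 7 endothelial markers, 3 fell in each comparison with C 8w and 1 rose in C 8w + A 4w, and their sum was 43.8 to 47.6 in C 8w, 29.9 and 24.7 in the C 12w tumors, and 20.9 to 38.8 in C 8w + A 4w. Of 9 stellate cell and fibroblast markers, 3 rose and 1 fell in C 12w, Col1a1, Col1a2 and Col3a1 being up. None of 9 macrophage markers passed, and 8 lymphocyte markers summed to between 0.768 and 3.20 in every sample. The part of other cells in the P450 values was not tested.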

How the data were processed

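RNA sequencing of 8 Fah-/- mice was used, and samples were placed in 3 groups by their treatment labels. The authors deposited FPKM values in one table, and the table held 0 columns of other samples. The labels' processing notes name Bowtie 0.12.2 and mm8 without their roles, and neither a quantifier nor a test of differential expression for these values is given in the sources used here. FPKM keeps no counts, so the depth and counting error of each sample are unknown. The FPKM values summed to 324735 to 399342 per sample.

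Genes that reached an FPKM of 1 in 2 or more samples were fitted as log2(FPKM + 1) in R 4.3.3 with limma 3.58.1 (eBayes with a trend, one fit of all 8 samples, two-sided). The fit was tested on simulated data for C 8w + A 4w against C 8w, with 200 of 11007 genes changed and 20 draws. On average 19.1% of log2 changes of 0.5 were recovered, 72.35% of those of 1 and 93.9% of those of 2. The false share averaged 4.48%. In the data 39.1% of genes were called in this comparison, so the simulation held fewer changes. Shared sequence was computed from GENCODE M21 transcripts, and promoters are RefSeq GRCm38.p6, with no coordinates taken from the deposited table. Python 3.11.15 was used.

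The genes named were a fixed set of well known members, the 5 largest rises and falls of each comparison among called members whose groups did not overlap, and the most abundant member of each subfamily, with the other named members chosen after their values were seen. For other lists than cell markers the 2 largest called genes in each direction were named where values of a list are given, leaving out an item that is not reported here. The members and lists were chosen with earlier results of these data known.

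The numbers 2 and 3 occur in both C 8w and C 12w. The difference between number 3 and number 2 correlated at -0.179 between the groups over 11007 genes, so they were not treated as pairs.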

Additional observations from a re-analysis of the deposited data

How the results depend on the processing

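Alternatives were other pseudocounts and floors, 3 scalings, only the groups compared, eBayes without its trend, each sample left out, genes with at most 2% shared sequence, a replicate block, and, chosen after seeing the data, the samples with Y-linked transcripts left out, zeros set to missing and the block crossed. The count of P450 genes called for C 8w + A 4w against C 8w (29) was 24 to 39 with 1 sample left out, 6 with at most 2% shared sequence (of 11 tested) and 19 without both samples with Y-linked transcripts (1 sample against 3). Where 1 sample is left in a group, it is assumed to vary like the other groups. For C 12w against C 8w (28) it was 14 to 36 with 1 sample left out, 18 without a floor and 5 with at most 2% shared sequence. For C 8w + A 4w against C 12w (27) it was 24 to 36 and 7. With the replicate number as a block over the 4 samples numbered 2 and 3, 7 genes were called in C 12w (2 up, 5 down), and with the numbers crossed 1. The correlation was negative, so the samples share only a number. Other settings left each count within 1.5 times. The counts under these alternatives come without the matching share of all genes. They do not show whether P450 genes lose more calls than other genes. Among the fold changes given, 1 reversed: Cyp3a11 in C 12w (-1.06) was 0.72 without C 12w replicate 3 and -2.83 without C 12w replicate 2. Of 26, 24 and 26 named calls in C 8w + A 4w against C 8w, C 12w against C 8w and C 8w + A 4w against C 12w, 6, 13 and 7 were lost with some 1 sample left out. Over all alternatives run, 18, 0 and 16 were never lost: of the 24 in C 12w against C 8w, the block lost 18 and the crossed block all 24. The cause was not tested. Unknown depth sets the limit for low genes.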
